A study of Arabidopsis thaliana with 9 samples.

Results

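The genes described here are those of the pericentromeric regions of the 5 Arabidopsis thaliana chromosomes, the stretches that flank the centromeres. The blocks are set by locus number, and no expression value enters the rule, but they were proposed with earlier results of these data known: AT1G36000 to AT1G42899, AT2G04500 to AT2G13499, AT3G28500 to AT3G42649, AT4G05200 to AT4G08499 and AT5G28800 to AT5G35399, with 8 loci excepted by the rule. Of 34212 loci with a value, 3619 fell in these blocks: 438 on chromosome 1, 1073 on chromosome 2, 905 on chromosome 3, 600 on chromosome 4 and 603 on chromosome 5. Whole seedlings of 14 days, grown on MS medium, were compared in 3 genotypes of the accession Col-0: wild type, plants with the smd1b-3 allele (here smd1b) and plants with the prp39a-3 allele from line SAIL_1249A03 (here prp39a). Each genotype has 3 libraries of polyadenylated RNA, which the labels describe as independent biological replicates, and each mutant is represented by 1 allele. The block limits are locus numbers and not measured chromatin boundaries.

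Pericentromeric DNA in Arabidopsis is mostly heterochromatin: it is dense in transposons and their remnants, and it is kept compact and largely untranscribed by DNA methylation, histone H3 lysine 9 methylation, linker histone and the remodeller DDM1. Ordinary genes are scattered through it, more of them toward the chromosome arms. SmD1b sits in the Sm core of the particles that make up the spliceosome, and PRP39a belongs to the U1 particle that recognises 5′ splice sites.

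The sequences of 5 loci on which the results below turn are given first, from RefSeq's TAIR10.1. The first 4 are the 250 bases before the annotated start of the locus with the largest rise in prp39a (AT3G29633), of the first locus of a strip of neighbours that rose in smd1b (AT5G34790), of a noncoding RNA (AT2G05914) and of a pseudogene (AT3G29470) that rose in smd1b. The last is the whole annotated coding stretch of AT2G11773, the largest rise in smd1b. Positions are chr3:11453529-11453778 (minus strand), chr5:12965830-12966079 (plus strand), chr2:2264544-2264793 (minus strand), chr3:11327361-11327610 (minus strand) and chr2:4724036-4724143 (minus strand). Capitals mark TATAAA on the gene's strand in the first 4, and the start and stop codons in the last.
AT3G29633: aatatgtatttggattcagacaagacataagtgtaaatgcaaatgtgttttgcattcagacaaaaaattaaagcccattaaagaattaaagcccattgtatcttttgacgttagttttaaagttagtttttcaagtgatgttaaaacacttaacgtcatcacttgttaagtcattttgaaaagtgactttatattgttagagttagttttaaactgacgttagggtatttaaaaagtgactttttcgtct
AT5G34790: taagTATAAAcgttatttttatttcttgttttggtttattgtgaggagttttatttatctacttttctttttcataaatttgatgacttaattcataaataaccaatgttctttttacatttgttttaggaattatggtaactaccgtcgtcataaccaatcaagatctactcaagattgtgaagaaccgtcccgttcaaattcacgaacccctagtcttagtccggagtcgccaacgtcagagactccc
AT2G05914: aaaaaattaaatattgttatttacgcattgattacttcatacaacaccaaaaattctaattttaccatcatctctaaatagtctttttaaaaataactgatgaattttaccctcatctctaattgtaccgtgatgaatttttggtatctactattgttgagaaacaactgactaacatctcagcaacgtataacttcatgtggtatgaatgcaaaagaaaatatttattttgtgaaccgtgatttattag
AT3G29470: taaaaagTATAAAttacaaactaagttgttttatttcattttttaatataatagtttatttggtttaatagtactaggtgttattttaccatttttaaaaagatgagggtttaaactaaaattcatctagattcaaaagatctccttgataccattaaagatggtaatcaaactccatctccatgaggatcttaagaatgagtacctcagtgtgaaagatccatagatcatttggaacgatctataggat
AT2G11773: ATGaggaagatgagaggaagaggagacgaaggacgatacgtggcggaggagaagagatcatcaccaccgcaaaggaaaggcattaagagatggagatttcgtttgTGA
The letters TATAAA stood in 31.1% of 33436 windows of this length before all loci and in 20.6% of 3554 windows before pericentromeric loci. On either strand the shares were 45.5% and 34.6%. Both matches printed lie 246 and 243 bases before the annotated start. The window before AT3G29633 holds the letters once on the other strand, and the window before AT2G05914 holds them on neither. None of the 4 windows overlaps an annotated gene.

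Most pericentromeric loci had no measured RNA. Expression is given in TPM, the transcripts of a gene per 1000000 transcripts of the library, summed over a gene's isoforms, and TPM keep no record of how many reads were sequenced. Of the 3619 loci, 2106 (58.2%) were listed at 0 in all 9 libraries, against 11.9% of the 30593 other loci. A further 1106 lay above 0 and under a mean of 1 TPM. The 407 that reached 1 TPM (11.3%, against 66.0% of other loci) are the ones tested. A locus that passed this filter through only 1 genotype had to differ between genotypes, so counts over the 407 do not speak for all members. RefSeq annotates 2588 of the loci as pseudogenes, a class that here takes in most transposable element genes, and 912 as protein-coding. Among the pseudogenes 45 (1.74%) reached 1 TPM, against 9.40% of 2223 pseudogenes elsewhere. Among the protein-coding loci 344 (37.7%) did, against 73.2% elsewhere. The median of the 407 was 12.7 TPM, and that of the other tested genes was 15.6 TPM. Among the 407 the median was 3.71 TPM for the 45 pseudogenes and 15.1 TPM for the 344 protein-coding loci.

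Expressed loci were unevenly spread. The block on chromosome 2 had the highest share at or above 1 TPM (15.3%), and those on chromosomes 1 and 5 had the lowest (6.62% and 7.13%). When the loci of each block were divided by order into 10 parts, the first part of the chromosome 3 block held 44.0% at or above 1 TPM and the sixth held 1.11%. On chromosome 4 the first and the last part held 23.3% and 35.0%, and the second held 1.67%. On chromosome 2 a separate peak of 26.2% stood in the fifth.

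**Figure D1:**
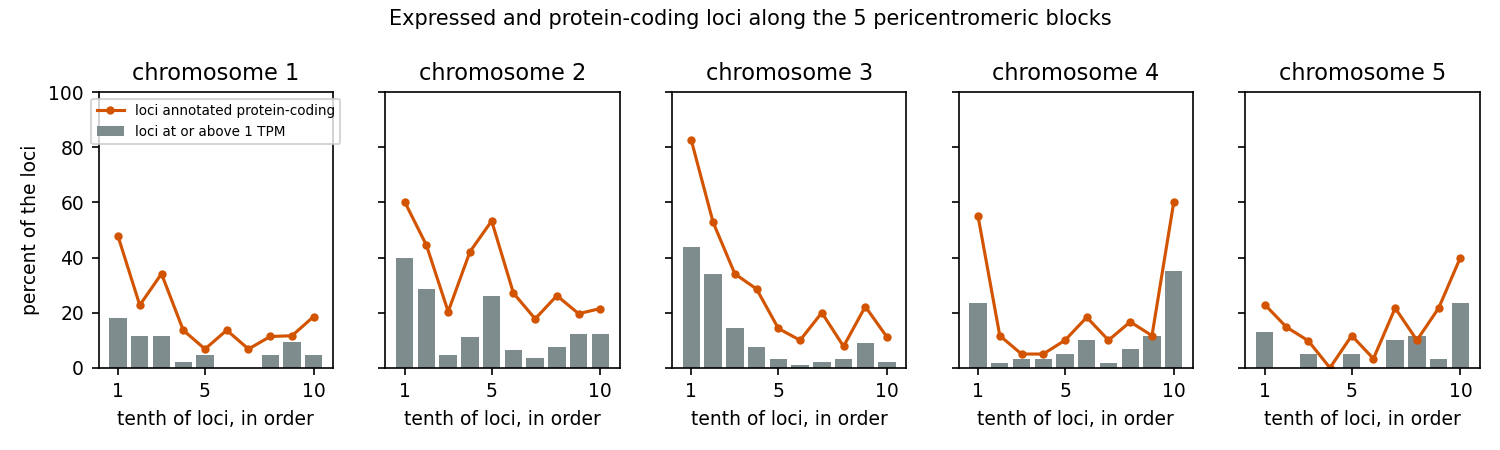
Each panel is 1 chromosome's block, with its loci divided by order into 10 parts along the horizontal axis. Bars give the percent of loci whose mean reached 1 TPM and the line gives the percent annotated protein-coding. On chromosome 3 the bars go from 44.0% in the first part to 1.11% in the sixth.

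Of the 5 most abundant members 4 lie in the chromosome 2 block. They are the glycine-rich protein genes GRP9 (AT2G05440), AT2G05380 and GRP-3 (AT2G05520), the polyubiquitin gene UBQ10 (AT4G05320, a source of ubiquitin often used as a steady reference) and AT2G10940, of the lipid-transfer protein family. In wild type UBQ10 had 1353, 1531 and 1446 TPM, in smd1b 1804, 1526 and 1557 TPM, and in prp39a 1230, 1343 and 1524 TPM. The UBQ10 values of each mutant overlap those of wild type, and neither mutant was called against it (limma, adjusted p = 0.367 and 0.663). All smd1b values lie above all prp39a values, at the closest 1526 against 1524 TPM. UBQ10 was not called between the mutants (limma, adjusted p = 0.113).

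Together the members made up 2.11%, 2.16% and 2.13% of the TPM of the wild-type libraries, 2.04%, 1.93% and 2.04% in smd1b, and 1.96%, 1.92% and 2.05% in prp39a. Both mutants lie below the wild-type range. Without the 5 most abundant members the shares were 1.37%, 1.43% and 1.35% in wild type, 1.37%, 1.29% and 1.34% in smd1b, and 1.302%, 1.287% and 1.394% in prp39a, and the groups overlap. Pseudogene members, taken alone, summed to 463, 480 and 455 TPM in wild type and to 496, 505 and 501 TPM in smd1b. In prp39a they summed to 451, 547 and 497 TPM. Without the loci of the mitochondrial DNA insertion described below, they summed to 426.4, 453.3 and 425.3 TPM in wild type. In smd1b these sums were 464.7, 478.1 and 467.6 TPM, and in prp39a 428.5, 430.4 and 464.4 TPM. Pseudogenes outside the regions were also higher in each smd1b library (2122, 2223 and 2118 TPM) than in wild type (1939, 2056 and 2017 TPM). No test was made of these sums, because the members were chosen with results known. In whole seedlings, fewer cells of a type and less RNA per cell cannot be told apart.

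The mutated genes matched the labels, and 1 library stood apart. SMD1B had 50.3 to 53.6 TPM in wild type against at most 0.139 TPM in smd1b, and PRP39A had 48.5 to 55.1 TPM in wild type and 5.44 to 5.58 TPM in prp39a. In the smd1b line the neighbours AT4G02800 to AT4G02850 and the distant AT3G55900 and AT3G55910 were also at or under 0.119 TPM, so differences of that line cannot be assigned to SMD1B alone. Leaf markers summed to 28180 to 41390 TPM and root markers to 91.7 to 186 TPM, and 4 of 5 floral markers were under 1 TPM in every group. All 3 prp39a libraries had higher leaf-marker sums (35160 to 41390 TPM) than the wild-type libraries (28480 to 34990 TPM). Replicate 2 of prp39a held 11940 TPM of chloroplast transcripts (2036 to 2890 TPM in the other 8 libraries), 600 TPM of mitochondrial ones (139 to 206 TPM) and 24.4 TPM of the 2 seed markers (at most 0.922 TPM). It touches these regions directly, since a large insertion of mitochondrial DNA lies in the chromosome 2 block: its 145 loci (AT2G07660 to AT2G07840) summed to 416 TPM in that library and to 123 to 160 TPM in the others. Of the 32 tested loci of the insertion, 25 have a near-identical copy elsewhere (98% identity over at least 100 bases), and none differed between either mutant and wild type.

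In smd1b, 36 of the 407 tested members differed from wild type, 25 higher and 11 lower. The largest changes were rises of loci with wild-type means of at most 2.36 TPM: a short coding stretch, an antisense noncoding RNA, a transposable element gene, several pseudogenes and a strip of 5 neighbours on chromosome 5. Falls were smaller, at most 1.28 on the log2 scale, and included a pair of abundant genes, for a glycine-rich protein and a cell wall enzyme. Of all 20585 genes tested, 6.63% were called in this comparison (limma on log2 of TPM + 0.5, Benjamini-Hochberg adjusted p under 0.05), 3.57% higher and 3.06% lower. The members' shares were 8.85% called, 6.14% higher and 2.70% lower. The median log2 change of the members was 0.02, the same as over all genes. Of the members called, 18 of those higher and 3 of those lower changed at least 2-fold, and 9 of the 25 had a wild-type mean under 1 TPM. All 36 had mutant values outside the wild-type range. So had 133 of the 407 in all, where the share over all genes was 30.3%. The count moved with single libraries, and so did the share over all genes. Without smd1b replicate 3 there were 19 calls (4.73% of members, 1.83% of all genes), without smd1b replicate 2 there were 20 (4.95% and 2.65%) and without wild-type replicate 2 there were 23 (5.65% and 2.97%), while without prp39a replicate 3 there were 41 (10.1% and 6.58%). The members' share also depended on the TPM filter. It was 5.21% beside 6.61% of all genes at a mean of at least 5 TPM, and 4.3% beside 4.34% with no filter.

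**Figure D2:**
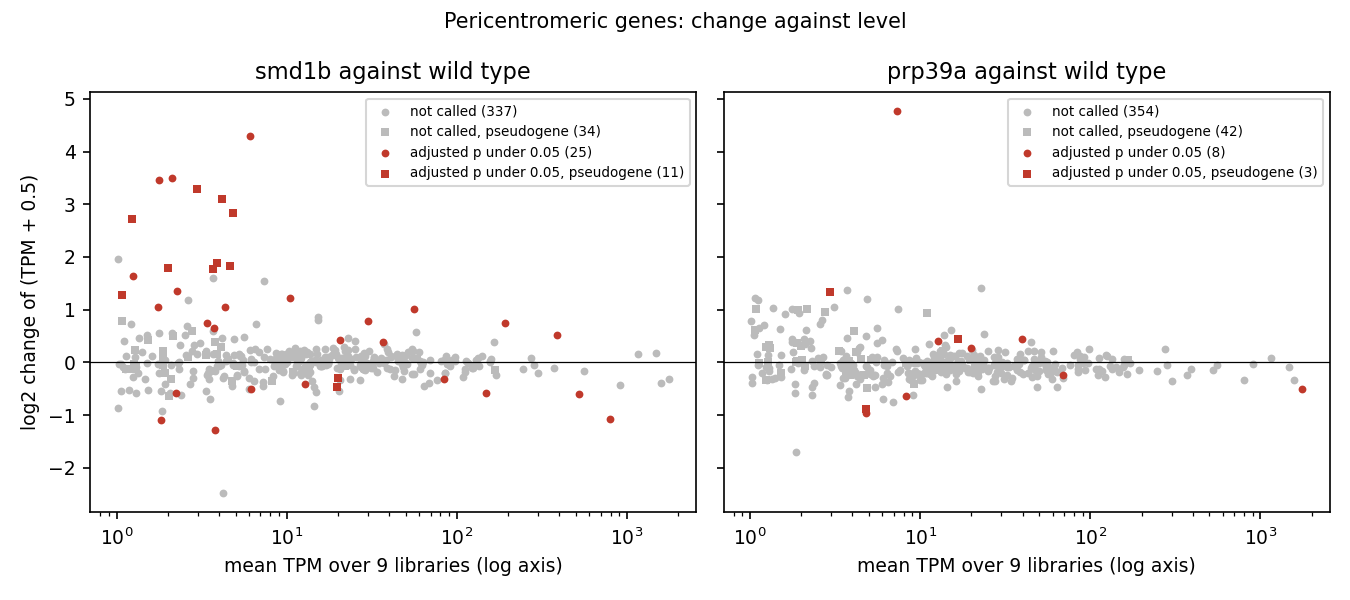
Each point is 1 of the 407 tested pericentromeric genes, with its mean TPM over 9 libraries on a log axis and its log2 change of TPM + 0.5 against wild type. Red marks an adjusted p under 0.05 and squares mark pseudogenes. In smd1b the 11 called pseudogenes are 9 rises and 2 falls, and in prp39a 1 gene, AT3G29633, stands above the rest at 4.77.

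Pseudogenes made up 9 of the 25 rises. Of the 45 tested pseudogene members 9 were higher in smd1b (20%), where 20 of 209 tested pseudogenes elsewhere were (9.57%) and 11.4% of all tested pseudogenes. These 9 together had 9.88, 10.4 and 8.81 TPM in wild type, while smd1b had 51.8, 76.6 and 67.1 TPM and prp39a 12.3, 8.84 and 11.2 TPM. That sum describes loci picked for their rise and is no test. The filter bears on these shares: 5 of the 9 had wild-type means under 1 TPM and so reached it through a mutant. Among tested pseudogenes with a wild-type mean of at least 1 TPM, 4 of 38 members and 17 of 202 others were higher. The class split was made after the values were seen, and 4 of the 9 are neighbours, so the difference between these shares was not tested.

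AT2G13431 (chr2:5590720-5591414, minus strand), annotated as a transposable element gene, had 0.395, 0.282 and 0.128 TPM in wild type and 5.13, 9.01 and 7.32 TPM in smd1b. Its log2 change was 3.30 ± 0.21 (SE; limma, adjusted p = 6.87e-05). In prp39a it had 1.32, 1.40 and 1.58 TPM, a log2 change of 1.34 ± 0.21 (adjusted p = 0.0124). The values of the 3 genotypes do not overlap. It lies inside AT2G13430, a protein-coding locus on the other strand that went from at most 0.209 TPM in wild type to 2.79, 2.22 and 1.82 TPM in smd1b. AT2G13430 has a mean under 1 TPM and was tested only with no TPM filter (adjusted p = 0.00196). The next gene, AT2G13440, was level, at 17.6 ± 0.599 TPM in wild type against 17.4 ± 1.48 TPM in smd1b (SD, n = 3).

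AT5G33303 (chr5:12570176-12571226), a pseudogene, had 0.881, 0.667 and 0.788 TPM in wild type and 7.28, 12.3 and 12.6 TPM in smd1b (log2 change 3.10 ± 0.27 SE, limma adjusted p = 0.00058). AT3G29470 (chr3:11326620-11327360), a pseudogene whose upstream sequence is printed above, had 1.39, 1.55 and 0.880 TPM in wild type and 7.41, 15.5 and 14.8 TPM in smd1b (log2 change 2.83 ± 0.27 SE, adjusted p = 0.000927). AT4G08093 (chr4:4990153-4991601), noted as a pseudogene of an unknown protein, went from at most 0.156 TPM in wild type to 2.82, 3.39 and 3.97 TPM (log2 change 2.71 ± 0.18 SE, adjusted p = 9.63e-05). In each of the 3 the prp39a values stayed at or under 1.56 TPM, and none was called in prp39a. A smaller pseudogene, AT3G29784, had 0.957, 2.20 and 2.33 TPM in smd1b against 0.380 to 0.474 TPM in wild type. Its adjusted p was 0.0434, and it passed the threshold in fewer fits than the others.

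**Figure D3:**
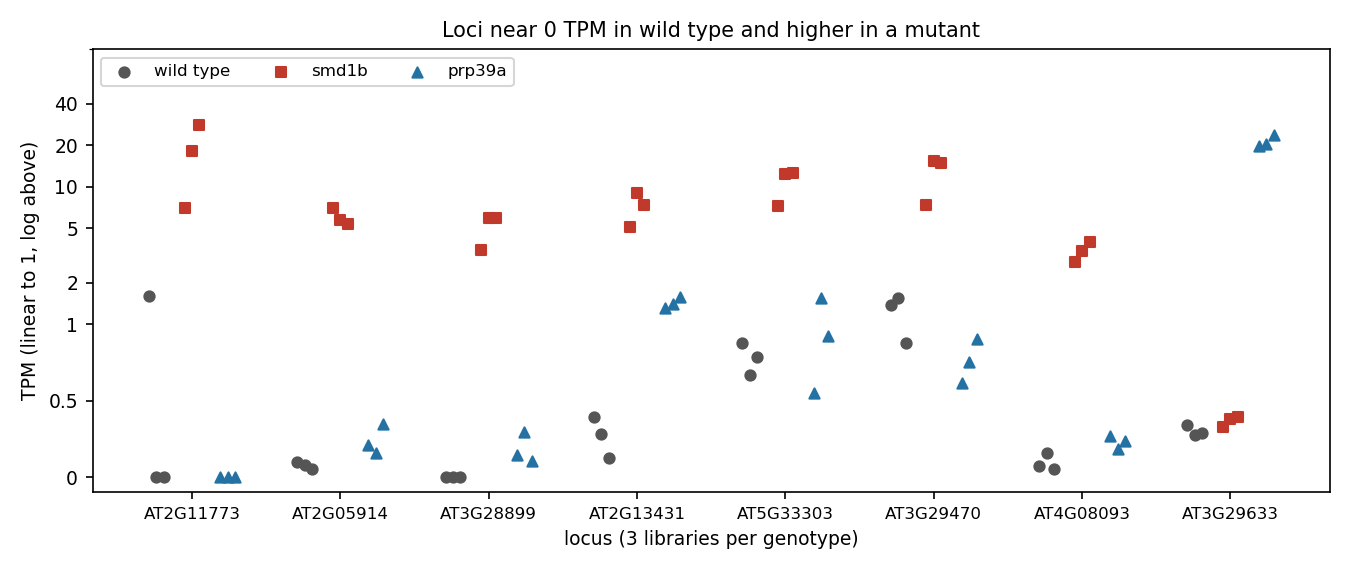
Each point is 1 library's TPM for 8 loci, on an axis that is linear to 1 TPM and logarithmic above. Wild type is grey, smd1b red and prp39a blue. Smd1b values of the first 7 loci lie above all wild-type values, and AT3G29633 at the right is high in prp39a alone, at 19.8 to 23.9 TPM.

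The strip on chromosome 5 was the longest run of neighbouring members called in 1 direction. AT5G34790, AT5G34795, AT5G34800, AT5G34810 and AT5G34830 follow each other on the plus strand from 12966080 to 12982497, and the first 4 are pseudogenes. AT5G34800 had 2.47, 2.24 and 2.38 TPM in wild type and 9.30, 10.7 and 8.90 TPM in smd1b, with 2.70, 1.35 and 1.94 TPM in prp39a. All smd1b values were above all others, and the log2 change from wild type was 1.82 ± 0.18 (SE; limma, adjusted p = 0.00112). AT5G34790, AT5G34795 and AT5G34810 rose 4.09-fold, 4.43-fold and 5.08-fold in mean TPM (adjusted p = 0.00189, 0.00164 and 0.00183). AT5G34830, the protein-coding end of the strip, rose 3.02-fold (adjusted p = 0.0224) and lost its call when any of 4 libraries was left out (adjusted p 0.0551 to 0.0815). AT5G34770 and AT5G34829 on the sides of the strip were listed at 0 in all 9 libraries, and AT5G34780 had at most 0.0272 TPM. Loci at or near 0 in every genotype cannot show where the rise ends.

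**Figure D4:**
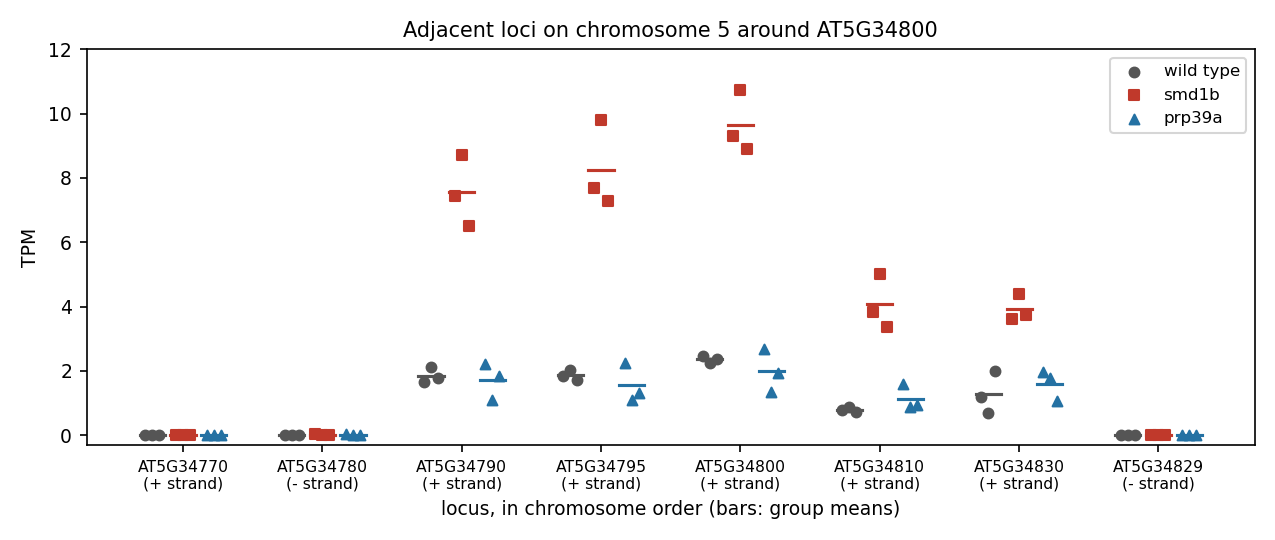
TPM of 8 adjacent loci of chromosome 5 in order, with 1 point per library and a bar at each group's mean. The 5 loci from AT5G34790 to AT5G34830 are higher in smd1b (red) than in wild type (grey) and prp39a (blue), and the loci on both sides are near 0 in every library.

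Among noncoding and very short coding loci were the largest ratios. AT2G05914 (chr2:2263124-2264543, minus strand) is a long noncoding RNA annotated as antisense to AT2G05915. It had 0.0956, 0.0768 and 0.0530 TPM in wild type, while smd1b had 7.03, 5.69 and 5.35 TPM and prp39a 0.158 to 0.346 TPM. Its log2 change in smd1b was 3.50 ± 0.17 (SE; limma, adjusted p = 1.01e-05), and its sense partner AT2G05915 had means of 0.0319 TPM in wild type against 0.326 TPM in smd1b. AT3G28899 (chr3:10902184-10902515, plus strand) lies on the opposite strand within AT3G28900. It was listed at 0 in all wild-type libraries and had 3.46, 5.97 and 5.97 TPM in smd1b (adjusted p = 8.87e-05) and at most 0.295 TPM in prp39a. It was the only member listed at 0 in wild type and at or above 1 TPM in all smd1b libraries, as were 7 of all 34212 loci (0.0205%). Its host AT3G28900 was not called, at 123 ± 12.9 TPM in wild type against 107 ± 2.67 TPM in smd1b (SD, n = 3). The library kit is stranded, but how the quantification used strand is not given in the sources used here, so reads of overlapping genes on opposite strands may not be fully separated.

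AT2G11773 is annotated as a single coding stretch of 108 bases, printed above. It had 1.61, 0 and 0 TPM in wild type, while smd1b had 6.96, 18.3 and 27.9 TPM. All prp39a libraries listed it at 0, and the log2 change in smd1b was 4.29 ± 0.60 (SE; limma, adjusted p = 0.00569). The smd1b values are far apart, and TPM of so short a transcript are imprecise. AT2G11770 and AT2G11775 on its sides were at or near 0 throughout.

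Of the protein-coding members that rose in smd1b, several lie close together at the start of the chromosome 3 block. The first part of that block is rich in such genes: 82.4% of its 91 loci are protein-coding, and 40 reached 1 TPM. AIG2 (AT3G28930), first found as a gene induced by the bacterial effector avrRpt2, had 38.4, 36.7 and 50.5 TPM in wild type and 73.7, 80.8 and 98.1 TPM in smd1b. Its log2 change was 1.00 ± 0.15 (SE; limma, adjusted p = 0.00778). Its neighbour and relative AT3G28940 rose 1.44-fold (adjusted p = 0.0247), while the next relative AT3G28950 had 47.4 ± 1.56 TPM in wild type against 49.7 ± 3.05 TPM in smd1b and was not called. RLP43 (AT3G28890), a receptor-like protein, went from 0.402 to 0.649 TPM in wild type to 1.63, 3.66 and 2.99 TPM (adjusted p = 0.00821), and the ankyrin repeat gene AT3G28880 beside it rose 1.81-fold (adjusted p = 0.0108, but 0.0551 without smd1b replicate 3). AT3G28540, an ATPase of the P-loop class, rose 2.44-fold (adjusted p = 0.0024). These genes are named by position and annotation, and no theme was tested.

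The other rises in smd1b were smaller. XGD1 (AT5G33290), which adds xylose to pectin, had 20.9, 28.1 and 25.7 TPM in wild type and 41.4, 43.1 and 45.0 TPM in smd1b (log2 change 0.79 ± 0.10 SE, limma adjusted p = 0.00397). SHM7 (AT1G36370), a serine hydroxymethyltransferase of one-carbon metabolism, rose 1.67-fold (adjusted p = 0.0299), and ACC2 (AT1G36180), an acetyl-CoA carboxylase of fatty acid synthesis, rose 1.68-fold (adjusted p = 0.0219). A pair of genes of KH-domain RNA-binding proteins rose: RIK (AT3G29390, 1.32-fold, adjusted p = 0.028) and AT3G32940 (1.36-fold, adjusted p = 0.0079). The 5.8S ribosomal RNA locus AT3G41979 rose 2.26-fold (adjusted p = 0.00755), but all of its span has a near-identical copy elsewhere and RNA of this kind has no regular poly(A) tail, so its level is uncertain. AT4G07995, an uncharacterised gene, rose 2.62-fold (adjusted p = 0.0216). SHM7, ACC2, AT3G28940, RIK and AT4G07995 each lost their call when any of 4 to 6 single libraries was left out.

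The largest falls in smd1b on the log2 scale were those of ACS11, AT2G12190 and AT2G05510. ACS11 (AT4G08040), an enzyme that makes the ethylene precursor, had 5.21, 6.88 and 5 TPM in wild type and 2.55, 1.64 and 1.99 TPM in smd1b (log2 change -1.28 ± 0.24 SE, limma adjusted p = 0.0196, and 0.0559 to 0.0781 without any of 4 libraries). The glycine-rich protein gene AT2G05510 had 1085, 1097 and 975 TPM in wild type and 586, 502 and 418 TPM in smd1b (log2 change -1.08 ± 0.16 SE, adjusted p = 0.00646). In prp39a it had 670, 862 and 986 TPM, which overlaps wild type. Its neighbour of the same family AT2G05540 was at 0.667 of its wild-type mean (adjusted p = 0.0278), while GRP-3 between them had 1086 ± 149 TPM in wild type against 1221 ± 198 TPM in smd1b and was not called (adjusted p = 0.514). XTH4 (AT2G06850), which cuts and rejoins cell wall xyloglucan, fell from 610 ± 54.4 TPM to 403 ± 23.5 TPM (SD, n = 3, adjusted p = 0.0411).

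The cytochrome P450 gene AT2G12190 and the uncharacterised AT2G12170 beside it fell together, AT2G12190 from 2.78, 2.73 and 2.42 TPM to 1.14, 0.966 and 0.826 TPM (log2 change -1.09, limma adjusted p = 0.00307) and AT2G12170 to 0.596 of its wild-type mean (adjusted p = 0.037). The pseudogenes AT3G29647 and AT2G11280 fell to 0.712 and 0.808 of their wild-type means (adjusted p = 0.00554 and 0.0446), AT2G04790 to 0.681 (adjusted p = 0.047) and the RNA-binding protein gene AT5G32450 to 0.801 (adjusted p = 0.0435). XTH4, AT2G05540, AT2G12170, AT2G11280, AT2G04790 and AT5G32450 each lost their call without 6 or 7 of the single libraries (adjusted p at most 0.135), while AT2G12190, AT2G05510 and AT3G29647 kept theirs with each library left out in turn.

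In prp39a, 11 of the 407 members differed from wild type, 6 higher and 5 lower, and 1 of these changes was far larger than the others. The share called, 2.70%, lies beside 4.13% of all genes in the same comparison, 1.73% higher and 2.39% lower. The median log2 change of the members was -0.05 and that of all genes -0.07. With TPM divided by median-of-ratios size factors the calls were 14, 12 higher and 2 lower (3.45%, beside 4.83% of all genes). All 11 had mutant values outside the wild-type range, as had 100 of the 407, where the share over all genes was 28.1%. Without prp39a replicate 2, the library rich in chloroplast RNA, 3 members were called, all higher (0.746%, beside 2.12% of all genes). Leaving out any 1 of the 3 wild-type libraries gave 3 to 5 calls (0.737% to 1.23%, beside 1.06% to 1.98%). Leaving out prp39a replicate 1 gave 2 (0.494%, beside 1.32%). Leaving out smd1b replicate 2 or 3 gave 7 and 6 (1.73% and 1.49%, beside 3.74% and 2.37%). In each of these fits the share over all genes was below 4.13% too. Leaf-marker sums were higher in all prp39a libraries, and their part in these results was not tested.

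AT3G29633 (chr3:11452509-11453528, minus strand), an uncharacterised protein-coding gene, had 0.343, 0.275 and 0.289 TPM in wild type and 0.325, 0.383 and 0.394 TPM in smd1b. In prp39a it had 19.8, 20.5 and 23.9 TPM. The prp39a values stand 70.8-fold above wild type in mean, with a log2 change of 4.77 ± 0.12 (SE; limma, adjusted p = 1.03e-07), and the call held with every library left out in turn. No neighbour came near this level. AT3G29630 had 2.67 ± 0.52 TPM in wild type against 1.61 ± 0.638 TPM in prp39a (SD, n = 3, adjusted p = 0.142), AT3G29634 and AT3G29620 were at or near 0, and AT3G29635 had means of 0.453 and 0.523 TPM. AT3G29636 was listed at 0 in all wild-type libraries and had 0.0567, 0.0564 and 0.1665 TPM in prp39a, and it was not called. AT3G29637, farther along, went from at most 0.0642 TPM in wild type to a mean of 0.255 TPM in prp39a, called only with no TPM filter (adjusted p = 0.0317).

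The remaining rises in prp39a were of 1.22-fold to 1.37-fold, apart from the transposable element gene AT2G13431 described above. NAC3 (AT3G29035), a transcription factor of the NAC family, had 31.0, 36.0 and 34.3 TPM in wild type and 44.8, 44.8 and 49.5 TPM in prp39a (limma, adjusted p = 0.0358). The pseudogene AT4G08220 rose 1.37-fold (adjusted p = 0.0219) and ORG4 (AT2G06010), a gene responsive to the transcription factor OBP3, 1.22-fold (adjusted p = 0.0452). P1R3 (AT3G29370), annotated as an atypical basic helix-loop-helix factor, is described with the difference between the mutants.

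Falls in prp39a included the most abundant member. GRP9 (AT2G05440) had 2264, 2124 and 1912 TPM in wild type and 1413, 1359 and 1663 TPM in prp39a (log2 change -0.51 ± 0.12 SE, limma adjusted p = 0.0474). The calcium-binding EF-hand gene AT3G29000 was at 0.469 of its wild-type mean (adjusted p = 0.0413), the pseudogene AT3G30214 at 0.495 (adjusted p = 0.0463) and the uncharacterised AT2G04795 at 0.627 (adjusted p = 0.0236). CUE1 (AT5G33320), the transporter of phosphoenolpyruvate into plastids, had 72.0, 71.7 and 73.6 TPM in wild type and 60.4, 59.5 and 64.1 TPM in prp39a (adjusted p = 0.0494). Each of these 5 falls lost its call without at least 4 of the 9 libraries, with an adjusted p of up to 0.158, and GRP9, AT3G29000 and CUE1 also with size factors (adjusted p = 0.0521, 0.0547 and 0.0953). NAC3, AT4G08220 and ORG4 lost theirs without 7, 4 and 9 of the libraries, with an adjusted p of at most 0.154.

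Both comparisons use 1 set of wild-type libraries, so their lists are not independent, and their values are given side by side. AT2G13431 and P1R3 were called in both, 5.56% of the 36 calls of smd1b and 18.2% of the 11 of prp39a. P1R3 went in opposite directions: it had 13.1, 11.8 and 12.5 TPM in wild type, while smd1b had 8.84, 9.41 and 9.49 TPM and prp39a 17.2, 17.4 and 15.3 TPM. The 3 groups do not overlap, and the difference between the mutants was 0.81 ± 0.08 on the log2 scale (SE; limma, adjusted p = 0.000473). Against wild type the P1R3 change was -0.41 ± 0.08 in smd1b (adjusted p = 0.0182) and 0.40 ± 0.08 in prp39a (adjusted p = 0.0254). The first call was lost without any of 4 libraries and the second without any of 5, with an adjusted p of up to 0.102.

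Set directly against smd1b, prp39a differed in 88 of the 407 members, 28 higher and 60 lower, which is 21.6% beside 21.1% of all genes (6.39% higher and 14.7% lower). With size factors the split was 46 higher and 49 lower (23.4% called, beside 20.5% of all genes). Without smd1b replicate 3 there were 49 calls (12.2% of members), and 2068 of all genes were called. Without prp39a replicate 1 there were 54 (13.3%), and 2100 of all genes were called. With all 9 libraries 4336 of all genes were called, so the count over all genes fell too. The strip of 5 neighbours on chromosome 5, AIG2 with AT3G28940, and RLP43 with AT3G28880 were adjacent calls here too, all lower in prp39a. AT2G12170 with AT2G12190 were higher. The smd1b libraries are the same as in the comparison with wild type, so these calls are not independent of those above. The 5 largest differences to the lower side were AT2G11773, AT3G29470, AT2G05914, AT3G28899 and AT5G33303, with log2 differences of -4.99, -3.32, -3.14, -3.02 and -2.91. Of the loci higher in prp39a, AFP3 (AT3G29575), a negative regulator in abscisic acid signalling, had 16.2, 18.2 and 17.5 TPM in smd1b and 29.9, 33.7 and 31.1 TPM in prp39a (limma, adjusted p = 0.00394), around wild-type values of 17.1, 23.1 and 25.5 TPM. BR6OX2 (AT3G30180), the last enzyme of brassinosteroid synthesis, had 11.97, 14.1 and 17.2 TPM in smd1b and 30.1, 19.2 and 26.8 TPM in prp39a (adjusted p = 0.0151), and wild type had 19.5 to 23.2 TPM, above all smd1b values and within the prp39a range.

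Below the 1 TPM filter, further loci of the regions differed when every locus above 0 was fitted, 28482 in all. In that fit 4.34% of loci were called in smd1b (2.55% higher, 1.8% lower), 2.43% in prp39a (1.11% higher, 1.31% lower) and 14.1% between the mutants (limma, adjusted p under 0.05). Among the 1106 members above 0 and under a mean of 1 TPM, 33 were called in smd1b (2.98%), 28 higher and 5 lower, where 2.93% of the 6791 other loci of that level were. The shares called higher were 2.53% and 1.97%. Of the 33, 15 are pseudogenes, 13 of them higher, while 806 of the 1106 members of that level are pseudogenes. AT5G28800 was listed at 0 in all wild-type libraries and had 1.01, 0.925 and 0.971 TPM in smd1b (limma, adjusted p = 1.06e-06). AT2G13463, near AT2G13431, had at most 0.153 TPM in wild type and 1.32, 1.54 and 1.21 TPM in smd1b (adjusted p = 0.00467). AT4G07940 had 0.286, 0.148 and 0.206 TPM in wild type and 0.949, 1.22 and 1.07 TPM in smd1b (adjusted p = 0.00242). In prp39a 8 such members were called (0.723%, beside 1.13% of the others), 4 higher and 4 lower. AT2G11300 was called higher in both mutants, from at most 0.0752 TPM in wild type to 0.473 to 0.633 TPM in smd1b (adjusted p = 0.00508), with an adjusted p of 0.00621 in prp39a. AT3G29150 had 0.126, 0.0983 and 0.103 TPM in wild type and was listed at 0 in all libraries of both mutants (adjusted p = 0.0028 in smd1b and 0.00595 in prp39a). These loci were picked after their values were seen, and at such levels the change of log2(TPM + 0.5) is small and the estimates imprecise.

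Lists of ordinary genes set within these regions were counted. Of a list of 19 metabolic enzymes, 18 were tested: 2 rose in smd1b (ACC2 and SHM7) and 1 fell (XTH4), with 6 at an unadjusted p under 0.05, and in prp39a none was called, with 5 at an unadjusted p under 0.05 (limma). The shares of all genes called were 6.63% in smd1b and 4.13% in prp39a. Of all 20585 genes, 4814 had an unadjusted p under 0.05 in smd1b, 4869 in prp39a and 7559 between the mutants (limma). Between the mutants 4 of the 18 were called, 1 higher and 3 lower in prp39a, where 21.1% of all genes were. Their median log2 change was 0.02 in smd1b and -0.14 in prp39a. Among those not called, nitrate reductase NIA2 had 338 ± 10.9 TPM in wild type, 296 ± 37.7 TPM in smd1b and 268 ± 30.7 TPM in prp39a (SD, n = 3), and the photorespiratory enzyme AGT1 had 583 ± 20.5, 518 ± 31.4 and 568 ± 69.1 TPM. Of 11 genes of protein turnover, trafficking and transport, none was called in smd1b, with none at an unadjusted p under 0.05, and 1 fell in prp39a (CUE1), while 2 were lower in prp39a than in smd1b. Of 5 genes of chromatin and transcription, none was called in either mutant against wild type, with none at an unadjusted p under 0.05 in limma. Between the mutants 3 had an unadjusted p under 0.05 and 1 was called. That gene, the WD-40 protein gene AT3G33530, had means of 28.0 TPM in wild type, 25.2 TPM in smd1b and 33.4 TPM in prp39a (adjusted p = 0.035 between the mutants, and up to 0.115 with a library left out). The others include NRPB6B, a subunit of RNA polymerases, at 45.5 TPM in wild type, 46.6 TPM in smd1b and 42.3 TPM in prp39a.

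The genes that silence heterochromatin lie mostly elsewhere in the genome and are not members. Of a list of 28 (DNA methyltransferases, histone methyltransferases, DDM1, linker histones, the RNA-directed DNA methylation enzymes and others), 27 were tested. In smd1b 1 was called, ROS1, named here after its values were seen. It is a DNA demethylase, which removes DNA methylation and does not set it. ROS1 had 16.1, 16.8 and 17.7 TPM in wild type, while smd1b had 11.1, 12.1 and 10.6 TPM (limma, adjusted p = 0.0153) and prp39a 22.2, 17.0 and 20.4 TPM. None was called in prp39a against wild type, with 4 at an unadjusted p under 0.05 in limma, and 3 were higher in prp39a than in smd1b (ROS1, DRM2 and HTA7). Over all genes 6.63% were called in smd1b and 4.13% in prp39a, and 6.39% were higher in prp39a than in smd1b. An unadjusted p under 0.05 was found for 5 of the 27 in smd1b and for 12 between the mutants (limma). Of all 20585 genes, 4814 had such a p in smd1b, 4869 in prp39a against wild type and 7559 between the mutants.

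Isoform shares changed in prp39a about as often among pericentromeric genes as over all genes. In 145 member genes 386 isoforms could be tested by their share of the gene's TPM. In prp39a 44 isoforms of 24 genes were called, 19 with a higher and 25 with a lower share. That is 11.4% of the isoforms, beside 10.6% of all 21990 isoforms tested (5.49% higher and 5.12% lower), and 16.6% of the genes, beside 16.6% of all 8587 genes (1426). The median change of the called isoforms was 15.5 percentage points, 14 of them moved by more than 20 points, and 1 of the 24 genes, AT2G13431, was also called in its total level. In smd1b 8 isoforms of 5 genes were called, 2.07% beside 2.17% of all isoforms (1.08% higher and 1.09% lower). The isoform test recovers large changes less often than the gene test, so these counts miss some. They also moved with single libraries: 26 to 34 isoforms were called in prp39a without 1 of its own or of the wild-type libraries, and 1 to 5 in smd1b likewise. The shares of all isoforms called were then 6.31% to 7.17% in prp39a and 0.447% to 0.785% in smd1b.

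**Figure D5:**
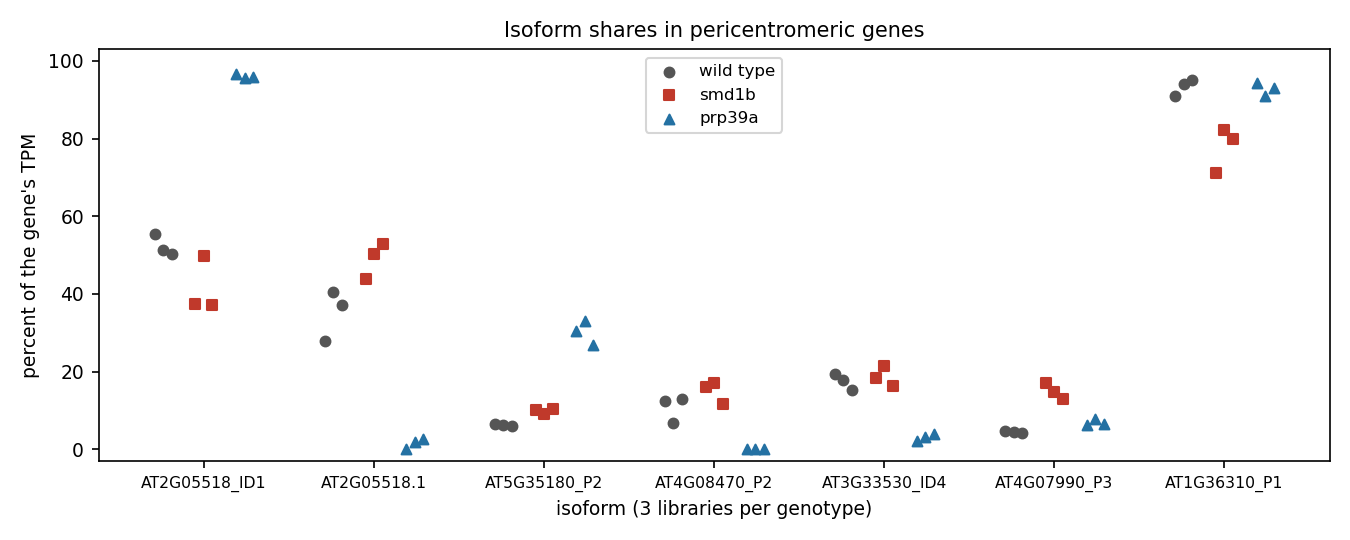
Each point is 1 library's share of the gene's TPM held by an isoform, in percent, for 7 isoforms of 6 genes. Prp39a values (blue) of the first 5 isoforms lie apart from those of wild type (grey) and smd1b (red), and smd1b values lie apart in AT4G07990_P3 and AT1G36310_P1.

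AT2G05518, a noncoding RNA gene, turned almost wholly to 1 isoform in prp39a. Its isoform AT2G05518_ID1 held 55.6%, 51.2% and 50.3% of the gene's TPM in wild type, 37.4%, 49.8% and 37.1% in smd1b and 96.5%, 95.5% and 95.8% in prp39a (limma on the log2 ratio to the other isoforms, adjusted p = 0.000172). Isoform AT2G05518.1 went the other way, from 27.8%, 40.5% and 37.1% in wild type to 0%, 1.98% and 2.72% (adjusted p = 0.000344). An isoform is measured against the others of its gene, so a rise of 1 lowers the rest.

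MEKK3 (AT4G08470), a kinase at the head of a MAP kinase cascade, lost 1 isoform. AT4G08470_P2 held 12.5%, 6.83% and 12.8% in wild type and 16.0%, 17.0% and 11.6% in smd1b, and was listed at 0 in all prp39a libraries (limma, adjusted p = 0.000222). AT5G35180_P2, of a gene of the DUF1336 family, rose from 6.51%, 6.15% and 5.95% to 30.4%, 33.1% and 27.0% (adjusted p = 0.000212), and stood at 9.001% to 10.3% in smd1b. AT3G33530_ID4 of the WD-40 gene fell from 19.4%, 17.8% and 15.3% to 2.15%, 3.13% and 3.83% (adjusted p = 0.000495). None of these 3 genes was called in its total level against wild type. Other genes with changed shares in prp39a, named after their values were seen, were PTM (AT5G35210), a transcription factor of the plastid envelope, in which AT5G35210_ID16 went from 16.6% to 39.5% in mean (adjusted p = 0.00307), and AtPOT1a (AT2G05210), a telomere protein, in which AT2G05210_P3 went from 28.4% to 11.6% (adjusted p = 0.0103).

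In smd1b fewer isoforms were called, 8 beside 44 in prp39a, and their median change was 13.1 beside 15.5 percentage points. AT4G07990_P3, of a DnaJ chaperone gene, went from 4.73%, 4.43% and 4.12% in wild type to 17.1%, 14.9% and 13.1% in smd1b (limma, adjusted p = 0.0175). AT1G36310_P1, of a methyltransferase gene, went from 91.0%, 93.9% and 95.1% to 71.1%, 82.2% and 80.0% (adjusted p = 0.0196). Both lost their call in the fit of 6 libraries (adjusted p = 0.0545 each) and without 5 and 4 of the single libraries. AT2G13431.1, AT2G13431_c1 and AT4G08093.1 were called as well (adjusted p = 0.00403 each), but in wild type these genes are near 0 and their shares ran from 0% to 100% between libraries, so no direction is read from them. The log2 ratio of AT4G08093.1 fell by 2.11 while its mean share rose by 2.71 points.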

How the data were processed

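The deposited table holds TPM per transcript isoform and library, and its column names carry the quantifier name kallisto, per the file headers. Each of its columns sums to 1000000, so read depth is unknown and no counting interval is given. The submitters' processing notes name TAIR10, Trimmomatic, TopHat2, featureCounts and DESeq2. How these relate to the TPM, and how strand was used, is not given in the sources used here. Of 15 value columns 9 matched samples by name, and 6 were not used. The values of near-identical copies and similar isoforms are uncertain.

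Isoform TPM were summed per locus. Loci with a mean of at least 1 TPM (20585) were fitted as log2(TPM + 0.5) in limma 3.58.1 (R 4.3.3; lmFit, contrasts, eBayes with trend, all 9 libraries, genotype only), and p-values were adjusted by Benjamini-Hochberg over all of them at 0.05, two-sided. Fold changes of low genes are understated by the pseudocount. Isoforms with a mean share of 5% to 95% in genes of at least 1 TPM were fitted as log2((isoform + 0.5)/(others + 0.5)). The procedure was tested on simulated data. The isoform test missed the recovery first required of it, and that requirement was then lowered for isoforms. Folds printed as "fold" or "of its wild-type mean" are ratios of mean TPM.

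Positions, classes and sequences are from RefSeq's TAIR10.1, whose table named 3554 of the 3619 members. Near-identical copies of 406 tested members were sought with blastn 2.17.0, and 44 had one. The members and gene lists were chosen with earlier results of these data known. Named genes are, per mutant, up to 10 largest rises and falls among called members without overlap and with at least 2 TPM in the higher group, 5 each way between the mutants, the 5 most abundant, called list members (up to 4 a list), members listed at 0 in wild type and at least 1 TPM in a mutant, and 5 isoforms per mutant. Other called members, neighbours and sequences were chosen after their values were seen. Alternatives were pseudocounts of 0.1 and 1 TPM, no filter, a filter of 5 TPM, size factors, no trend, fits of 6 libraries, a replicate block and leaving out each library.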

Additional observations from a re-analysis of the deposited data

Results flagged for a closer look

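P1R3 (AT3G29370) was singled out because its change against wild type had opposite signs in the mutants and the difference between them was itself tested: 0.81 on the log2 scale (limma, adjusted p = 0.000473), with all 3 prp39a libraries above and all 3 smd1b libraries below the wild-type range. Both changes are measured against the same wild-type libraries. Groups of 3 are too small for the check of single libraries far from their group.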

How the results depend on the processing

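Replicate numbers did not pair the libraries: correlations of same-numbered libraries' deviations from their group means ran from -0.401 to 0.287, and not every pair was over 0.1. Those of differently numbered libraries ran from -0.443 to 0.466, and whether libraries pair under another numbering was not tested. Of the 2301 values for named genes and isoforms under all alternatives, 2050 kept their side of the threshold, 231 lost the call and 20 gained it. No value called in the main or the alternative fit changed direction between them. Changes of direction among values called in neither fit were not counted apart. For smd1b genes (36 called), no TPM filter gave 65 (4.3%, beside 4.34% of all genes). A mean of at least 5 TPM gave 15 (5.21%, beside 6.61%), and the replicate block 27 (6.63%, beside 4.04%). Leaving out a library gave 19 to 41, with 1.83% to 6.91% of all genes called. For prp39a genes (11), the fit of 6 libraries gave 3 (0.746%, beside 2.02% of all genes). The replicate block gave 4 (0.983%, beside 1.67%), and leaving out a library 2 to 11, with 1.06% to 4.06% of all genes called. For prp39a against smd1b (88), no filter gave 133 (8.79%, beside 14.1%). There the replicate block gave 67 (16.5%, beside 15.7%), and leaving out a library 49 to 84, with 2068 to 4443 of all genes called. For smd1b isoforms (8), a pseudocount of 0.1 TPM gave 5 (1.3%, beside 1.48% of all isoforms). The fit of 6 libraries and the replicate block gave 3 each (0.777%, beside 0.57% and 0.7%). Leaving out a library gave 1 to 9, with 0.447% to 1.95% of all isoforms called. For prp39a isoforms (44), the replicate block gave 38 (9.84%, beside 8.22% of all isoforms). Leaving out a library there gave 26 to 47, with 6.31% to 10.5% of all isoforms called. The summed share of library TPM differed from wild type by -0.13 points in smd1b and -0.16 in prp39a. Without the 5 most abundant members these were -0.0538 and -0.0575, since those genes hold much of the sum. Without organelle loci in the total, an alternative chosen after seeing the data, they were -0.131 and -0.154. With no filter more loci are tested, and with 5 TPM fewer. The cause of the other shifts was not tested.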
